A study of Rattus norvegicus with 14 samples.

Results

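Collagens are the main structural proteins of connective tissue, and their genes were examined here in the foreskin of newborn rats. The members were the genes whose probe set carries exactly 1 symbol of the form Col, a number, the letter a and a number, with the brightest probe set kept where a gene had several. This gave 25 collagen genes of the 14497 genes measured. Affymetrix Gene 1.0 ST arrays gave each a log2 value, on which a difference of 1 is a doubling. Sprague Dawley dams were gavaged daily on gestational days 16 to 20 with corn oil, the vehicle, or with flutamide, a drug that blocks the androgen receptor, at 5 mg/kg/day. Foreskins were taken on postnatal day 5, with 7 litters per group. A sample was the pooled tissue of 2 pups from 1 litter, and litters were the replicates.

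Each collagen molecule is a triple helix of 3 chains, which may be products of 1 gene or of several. Fibrillar collagens such as types I, III and V form the rope-like fibrils of the dermis, and fibril-associated collagens sit on the fibril surface. Type IV collagen builds the sheet of the basement membrane under the epidermis and around vessels, type VII anchors that sheet to the dermis, and type XVII is a transmembrane collagen of basal keratinocytes. Types II, IX, X and XI are best known from cartilage. In skin, fibroblasts make most of the fibrillar chains.

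Of 45 collagen genes listed by class, the measured members covered 10 of the 11 fibrillar genes and 5 of the 10 fibril-associated genes. They also covered 3 of 6 genes of the type IV network, 3 of 4 transmembrane genes, 2 of 3 hexagonal network genes (types VIII and X), 1 of 6 beaded filament genes (Col6a4) and Col7a1. Col4a2, Col6a1, Col6a2, Col6a3, Col15a1 and Col18a1, among others, were not analysed here. A probe set's brightness depends on its probes as well as on the RNA, so the order of levels below is an order of array values and not of RNA amounts.

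The brightest markers of dermal fibroblasts and basal keratinocytes lay near the top of the array values. Dcn and Dpt, matrix genes of dermal fibroblasts, had mean array values of 11.1 and 10.32 in corn oil litters. Krt14, a keratin of basal keratinocytes, had 9.87, which was above 98.8% of the genes measured. The dimmest fibroblast and keratinocyte markers outside the collagens, Twist2 and Itgb4, lay above 67.3% and 78.4%. Such brightness was not particular to these markers, as Acta2, a smooth muscle and pericyte marker, lay above Krt14. Cartilage markers lay lower, with Hapln1 at 4.68, Matn1 at 5.32, Acan at 5.41, Col9a1 at 5.68 and Comp at 5.79. The brightest of that list, Col2a1, had 6.18, beside a median of 5.89 over all genes measured. The sample medians lay within 0.073 of each other. The spread of values within an array, its SD, ran from 1.68 in flutamide replicate 7 to 1.76 in corn oil replicate 1.

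The brightest collagen array values belonged to the fibrillar chains of types I and III and to 2 fibril-associated collagens. In corn oil litters Col12a1, a fibril-associated chain of dense connective tissue, had 9.41 ± 0.13 (SD, n = 7). Col1a2 had 9.25 ± 0.09 and Col14a1, which binds fibrils in skin, 9.18 ± 0.13 (SD, n = 7 each). Col1a1 had 9.01 ± 0.14 and Col3a1 8.72 ± 0.10 (SD, n = 7 each). These 5 genes were the members above the 90th percentile of all genes measured, and they stayed the 5 brightest, in the same order, with each corn oil litter left out in turn. Single litters kept the order among them less often. Col12a1 lay above Col1a2 in 6 of 7 corn oil litters, and Col1a2 above Col14a1 and Col14a1 above Col1a1 in 5 of 7 each. Col1a1 lay above Col3a1 in all 7.

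A gap of 1.47 on the log2 scale separated Col3a1 from the next gene, Col5a2, at 7.25 ± 0.10 (SD, n = 7), a chain of the type V collagen that nucleates fibrils. Its partner chain Col5a1 had 6.93 ± 0.04. Col17a1 followed with 6.73 ± 0.07 and Col4a1, a chain of every basement membrane, with 6.68 ± 0.06 (SD, n = 7 each). Below them the members crowded together. From Col27a1 at 6.47 to Col4a4 at 5.66, no member stood apart from its neighbour in the order beyond the range of the litters. Over all 24 neighbouring pairs the corn oil ranges overlapped in 20, and the 4 exceptions were Col3a1 over Col5a2, Col5a2 over Col5a1, Col5a1 over Col17a1 and Col4a4 over Col8a1.

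**Figure D1:**
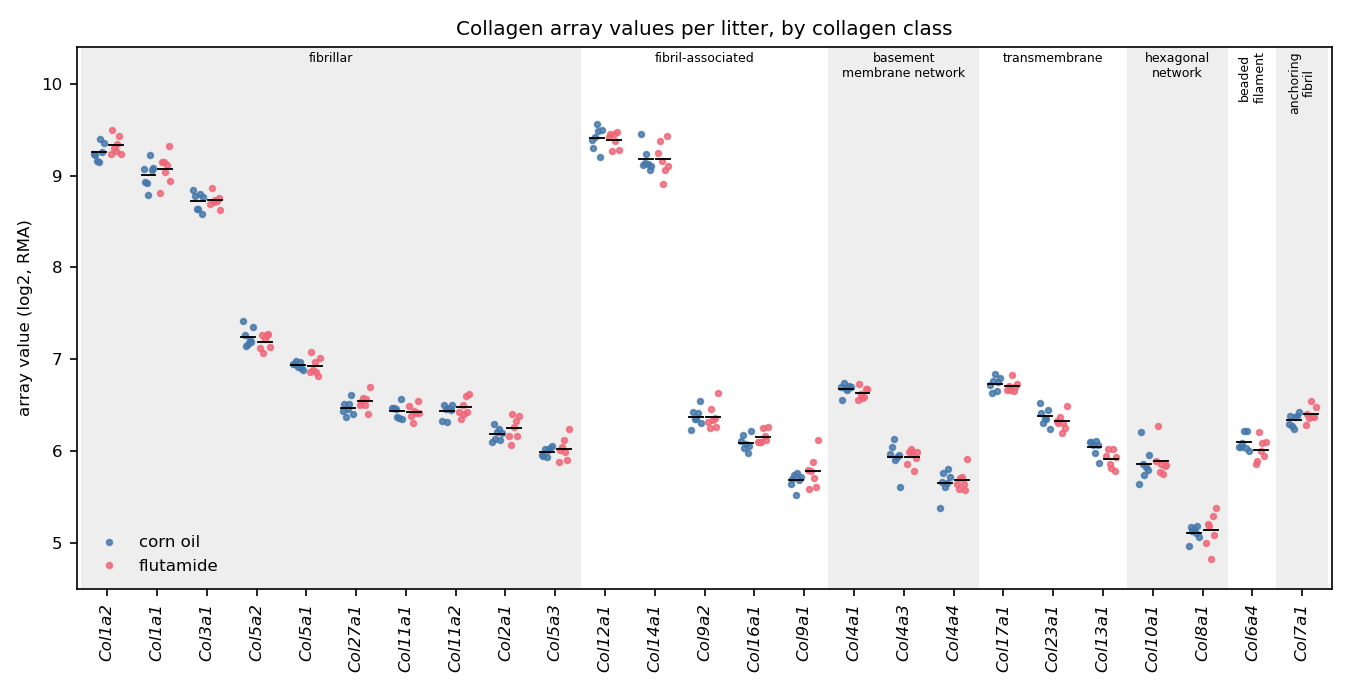
Array values (log2, RMA) of the 25 collagen genes, 1 point per litter in blue for corn oil and red for flutamide, with a bar at each group mean, sorted by collagen class. Col12a1, Col1a2, Col14a1, Col1a1 and Col3a1, with corn oil means from 8.72 to 9.41, sit above the other members, and the groups overlap for all 25 genes.

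By class, the fibrillar genes ran from Col1a2 at 9.25 down to Col5a3, another type V chain, at 5.99, with a median of 6.70. The fibril-associated genes ran from Col12a1 at 9.41 to Col9a1 at 5.68. Within the type IV network Col4a1 at 6.68 was brighter than Col4a3 at 5.94 and Col4a4 at 5.66, chains known from specialised membranes such as that of the kidney glomerulus. The transmembrane genes had a median of 6.38. Col7a1 had 6.34 ± 0.07 (SD, n = 7). The dimmest member was Col8a1, a short-chain collagen of vessel walls, at 5.11 ± 0.08 (SD, n = 7). Of the cartilage-type genes, Col11a1 had 6.43, Col11a2 6.43, Col9a2 6.37 and Col2a1 6.18.

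Collagen array values varied little between litters of a group. The median SD within groups was 0.093 over the members, against 0.138 over all genes measured and 0.119 over genes with a mean log2 value of at least 6, and 20 of the 25 members lay below the median of all genes. The least variable member was Col4a1 with an SD of 0.062, and the most variable was Col10a1, the type X chain of hypertrophic cartilage, with 0.178.

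The comparison of flutamide with corn oil litters asked whether prenatal blockade of androgen action left a difference in collagen expression after birth. No collagen gene passed the test, limma's moderated comparison with p-values adjusted over all genes by the Benjamini-Hochberg method and a threshold of 0.05. The count was 0 of 25 members, beside 0.0069% of all genes measured. At an unadjusted p under 0.05 there was 1 member, Col13a1, which is 4% of the members beside 9.16% of all genes, and without moderation the count was also 0 adjusted and 1 unadjusted. For none of the 25 did the groups of litters fail to overlap, where 0.124% of all genes showed no overlap. Of the members 15 had a higher and 10 a lower mean in flutamide litters, with a median difference of 0.0097, beside 0.0048 over all genes measured. That median turned to -0.0035 without flutamide replicate 7. Of all genes measured, 52.3% had a higher mean in flutamide litters, and of genes with a mean log2 value of at least 6, 44.5% did.

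The intervals bound how large a difference could be. For all 25 members the 95% confidence interval of the array difference ended short of 1.25-fold on both sides, as it did for 12379 of the 14497 genes. The widest reach upward was that of Col9a1, to 1.19-fold, and downward that of Col13a1, to 0.841-fold. These are bounds on array values, whose differences RMA shrinks for dim probe sets. In whole tissue, fewer cells of a type and less RNA per cell cannot be told apart.

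**Figure D2:**
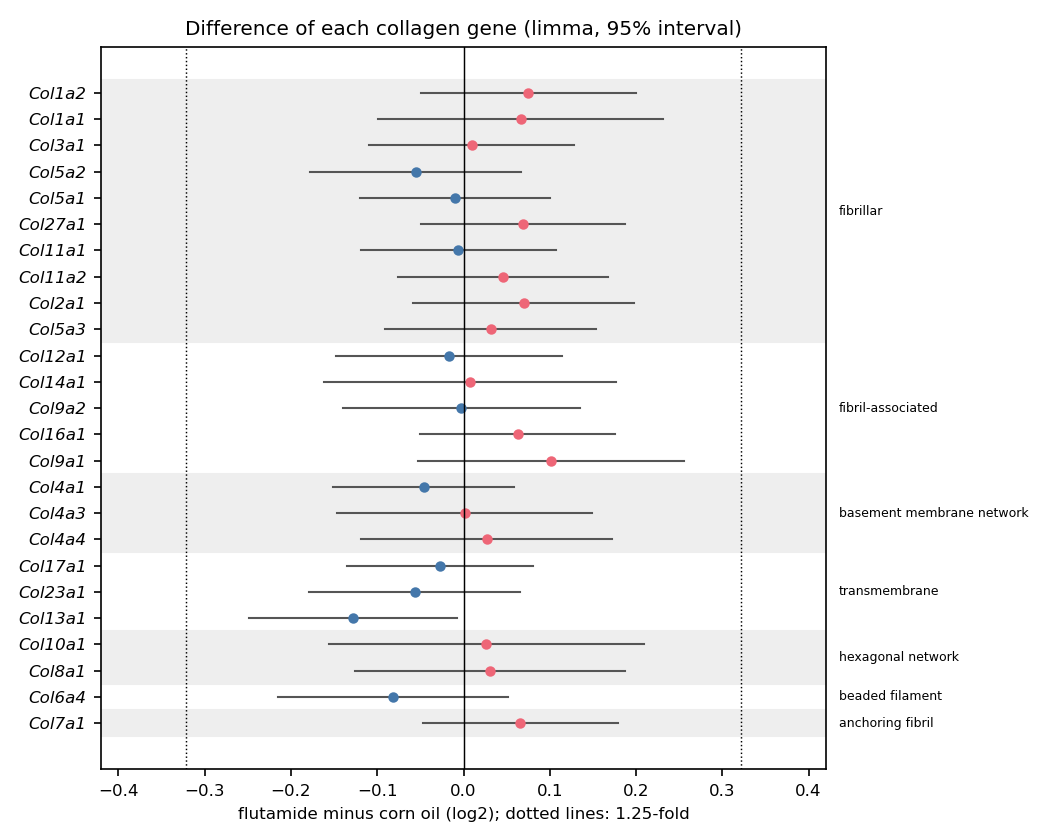
Difference of each collagen gene, flutamide minus corn oil on the log2 scale, as a point with its 95% confidence interval from limma, grouped by class and sorted by array value within a class, with positive differences in red and negative in blue. Points run from -0.13 for Col13a1 to 0.10 for Col9a1, and every interval ends inside the dotted lines at 1.25-fold.

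For the brightest chains of the dermal fibril the litters of both groups overlapped. Col1a1 encodes the major chain of type I collagen. Its probe set 10737532 ran from 8.79 to 9.23 in corn oil litters, with a median of 9.06, and from 8.81 to 9.32 in flutamide litters, with a median of 9.12. Flutamide replicate 6 lay above all corn oil litters and the others within their range. The difference was 0.07 (SE 0.08; limma adjusted p = 0.840), a fold of 1.05 with an interval from 0.934 to 1.17. Without flutamide replicate 6 it was 0.025 and without flutamide replicate 1 it was 0.11.

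Col1a2 (probe set 10853559), the other type I chain, ran from 9.15 to 9.39 with a median of 9.23 in corn oil and from 9.23 to 9.50 with a median of 9.30 in flutamide litters. Flutamide replicates 2 and 6 lay above every corn oil litter, and the rest overlapped. The difference was 0.08 (SE 0.06; limma adjusted p = 0.743). With the mean of the basal keratinocyte markers as a covariate it became 0.13 (limma adjusted p = 0.481), and that of Col1a1 became 0.14 (limma adjusted p = 0.553). All 5 of those keratinocyte markers had lower means in flutamide litters, with a list mean between 8.65 and 8.83 in corn oil and between 8.55 and 8.76 in flutamide litters. Among genes with a mean log2 value of at least 6, 44.5% had a higher mean in flutamide litters. Of 7 fibroblast markers outside the collagens, 2 had higher and the others lower means in flutamide litters. Their list mean ran from 8.44 to 8.69 in corn oil and from 8.34 to 8.55 in flutamide litters. The log2 of the summed fibroblast signal ran from 12.11 to 12.39 in corn oil and, inside that range, from 12.14 to 12.30 in flutamide litters. For the keratinocyte markers it ran from 11.20 to 11.43 in corn oil and from 11.10 to 11.37 in flutamide litters. The part of either marker list in the type I values was not tested.

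Col3a1 (probe set 10923052), the chain of the fine fibrils of young dermis, ran from 8.58 to 8.84 with a median of 8.77 in corn oil, and from 8.63 to 8.86 with a median of 8.72 in flutamide litters. Flutamide replicate 2 lay just above the corn oil range, and 6 of the 7 flutamide litters lay below the corn oil median. The difference was 0.0097 (SE 0.06; limma adjusted p = 0.981), with an interval of the fold from 0.927 to 1.09. Col5a2 ran from 7.14 to 7.41 with a median of 7.21 in corn oil, and from 7.07 to 7.27 with a median of 7.22 in flutamide litters. Flutamide replicates 1, 3 and 7 lay below all corn oil litters and the others within their range. The difference was -0.06 (SE 0.06; limma adjusted p = 0.816), and -0.03 without corn oil replicate 1.

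Col27a1, a fibrillar chain first known from cartilage, ran from 6.37 to 6.61 with a median of 6.46 in corn oil, and from 6.398 to 6.70 with a median of 6.54 in flutamide litters. Of the 7 flutamide litters 6 lay above the corn oil median, and flutamide replicate 7 lay above the whole corn oil range. The difference was 0.07 (SE 0.06; limma adjusted p = 0.755). The fibrillar class as a whole had 7 of 10 members above 0 and 3 below, with a median difference of 0.04 and none passing.

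Among fibril-associated chains, Col12a1 ran from 9.20 to 9.56 in corn oil and from 9.27 to 9.47 in flutamide litters, with a median of 9.42 in both. The difference was -0.02 (SE 0.06; limma adjusted p = 0.963). Col16a1, a chain found near fibrils and the basement membrane of skin, ran from 5.98 to 6.21 with a median of 6.07 in corn oil, and from 6.09 to 6.26 with a median of 6.12 in flutamide litters. All 7 flutamide litters lay above the corn oil median, though 5 of them stayed within the corn oil range. The difference was 0.06 (SE 0.05; limma adjusted p = 0.768).

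Col9a1 (probe set 10922192), a cartilage-type chain, had the largest positive difference of the members. It ran from 5.52 to 5.76 with a median of 5.70 in corn oil, and from 5.59 to 6.12 with a median of 5.78 in flutamide litters. Of the flutamide litters 4 lay above all corn oil litters, and replicate 7 was the highest. The difference of 0.10 (SE 0.07; limma adjusted p = 0.715) became 0.05 without flutamide replicate 7 and 0.05 with array SD as a covariate, and limma's adjusted p over the alternatives stayed above the threshold. The 4 cartilage markers outside the collagens, Acan, Comp, Hapln1 and Matn1, all had higher means in flutamide litters without passing, beside 52.3% of all genes. That share was 44.5% for genes with a mean log2 value of at least 6, so it was above 52.3% for dimmer genes. These 4 markers had means below 6. The log2 of the summed linear signal of the 4 markers ran from 7.25 to 7.42 in corn oil and from 7.36 to 7.62 in flutamide litters. The part of these markers in the Col9a1 difference was not tested.

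The transmembrane collagens all had lower means in flutamide litters, and 0 of 3 passed. Col13a1 (probe set 10833104), a collagen of cell-matrix contacts that is also needed at the neuromuscular junction, had the smallest p-value of the 25. It ran from 5.88 to 6.11 with a median of 6.07 in corn oil, and from 5.78 to 6.03 with a median of 5.93 in flutamide litters. All 7 flutamide litters lay below the corn oil median and 3 below the whole corn oil range. The difference was -0.13 (SE 0.06), a 0.915-fold level with an interval from 0.841 to 0.995, with a limma p of 0.0387 that became 0.520 when adjusted over all genes. Permuting the litters between the groups in all 3432 ways gave a two-sided exact p of 0.0251, unadjusted for the number of members, where the smallest possible p is 0.000583. With single litters left out the difference ran from -0.16 to -0.11, and the lowest limma adjusted p over the alternatives tried was 0.404. All 5 skeletal muscle markers also had lower means in flutamide litters, with the log2 of their summed signal from 8.79 to 9.23 in corn oil and from 8.57 to 9.11 in flutamide litters. Their part in the Col13a1 difference was not tested. Of all genes measured 52.3% had higher means in flutamide litters, and of genes with a mean log2 value of at least 6, 44.5% did. The lists of other cell types were not set beside a collagen. In them 4 of 5 bone, 2 of 5 adipocyte, 1 of 5 macrophage and 1 of 3 Schwann cell markers were higher.

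Col23a1, another transmembrane collagen, ran from 6.24 to 6.52 with a median of 6.36 in corn oil, and from 6.20 to 6.49 with a median of 6.31 in flutamide litters. Flutamide replicate 4 lay below all corn oil litters and the others within their range. The difference was -0.06 (SE 0.06; limma adjusted p = 0.811). Col17a1 (probe set 10730691), which holds basal keratinocytes to the basement membrane, ran from 6.63 to 6.84 with a median of 6.75 in corn oil, and from 6.65 to 6.83 with a median of 6.70 in flutamide litters. Every flutamide litter lay inside the corn oil range. The difference was -0.03 (SE 0.05; limma adjusted p = 0.915).

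**Figure D3:**
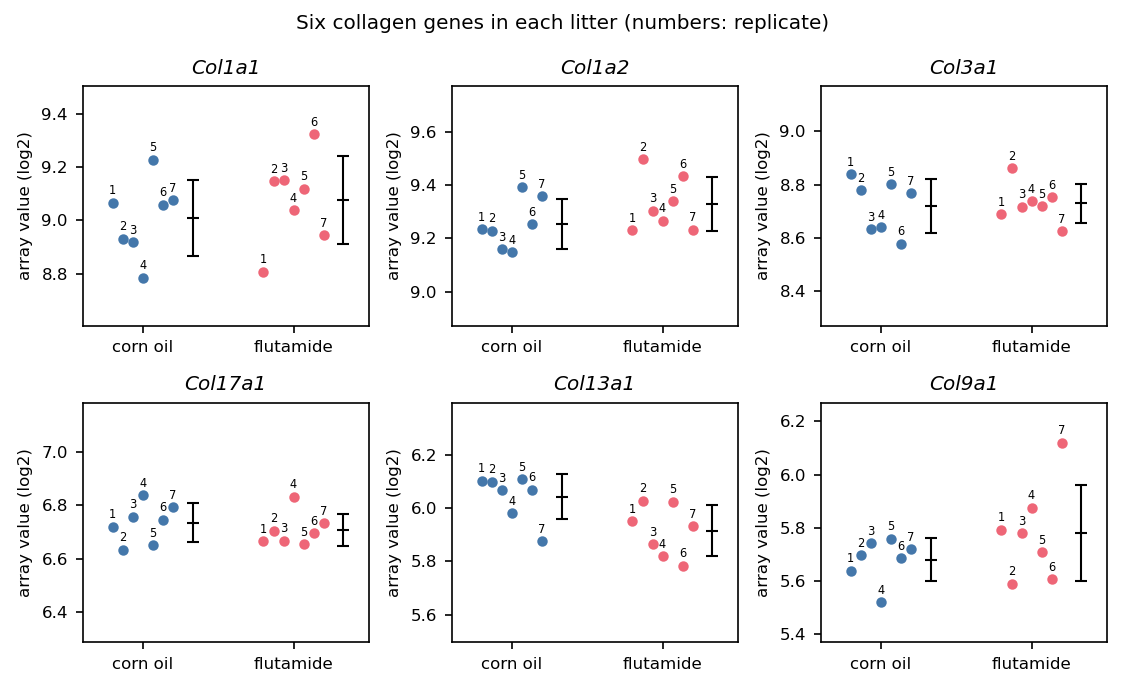
Array values (log2) of Col1a1, Col1a2, Col3a1, Col17a1, Col13a1 and Col9a1 in each litter, numbered by replicate, with the mean ± SD of each group beside its points. All panels span the same height on the log2 scale, and the groups overlap in each. All flutamide litters of Col13a1 lie below the corn oil median of 6.07.

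At the basement membrane, Col4a1 ran from 6.56 to 6.74 with a median of 6.70 in corn oil, and from 6.55 to 6.73 with a median of 6.63 in flutamide litters. Of the flutamide litters 6 lay below the corn oil median, though 1 lay below the corn oil range. The difference was -0.05 (SE 0.05; limma adjusted p = 0.822). Endothelial cells make much of the type IV collagen of a tissue, and their 5 measured markers all had lower means in flutamide litters, with the log2 of their summed signal from 9.50 to 9.94 in corn oil and from 9.46 to 9.70 in flutamide litters. Smooth muscle cells and pericytes of vessel walls also make type IV collagen. Of their 10 markers, 8 had lower means in flutamide litters, the log2 of their summed signal ran from 11.18 to 11.38 in corn oil and from 11.04 to 11.37 in flutamide litters, and the mean over the markers was 7.19 and 7.02. Among them Higd1b, a pericyte gene, differed by -0.38 and Des, the muscle filament desmin, by -0.34, with no overlap between the groups but limma adjusted p-values of 0.179 and 0.302. These were the 2 of smallest p in the list, and 0.124% of all genes showed no overlap. Cspg4 and Pdgfrb, of the same list, were higher in flutamide litters, by 0.05 and 0.04. Among genes with a mean log2 value of at least 6, 44.5% had a higher mean in flutamide litters. The part of the endothelial or the smooth muscle and pericyte markers in the Col4a1 difference was not tested. Col7a1 ran from 6.24 to 6.42 with a median of 6.37 in corn oil, and from 6.28 to 6.55 with a median of 6.38 in flutamide litters. Flutamide replicates 4 and 7 lay above all corn oil litters. The difference was 0.07 (SE 0.05; limma adjusted p = 0.755).

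Col6a4, a chain of the type VI microfibril family, was the 1 member with several probe sets, and they disagreed. On the brightest it ran from 6.005 to 6.22 with a median of 6.05 in corn oil, and from 5.86 to 6.21 with a median of 5.997 in flutamide litters, where 4 litters lay below all corn oil litters. The difference there was -0.08 (SE 0.06; limma adjusted p = 0.738). On the other probe sets, at corn oil means of 4.72 and 3.95, it was 0.02 and 0.12, and the mean of all 3 probe sets differed by 0.02. Col10a1 ran from 5.64 to 6.21 with a median of 5.83 in corn oil, and from 5.75 to 6.27 with a median of 5.84 in flutamide litters. In both groups replicate 2 was the highest. The difference was 0.03 (SE 0.09; limma adjusted p = 0.956).

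The other 10 members were Col2a1, Col4a3, Col4a4, Col5a1, Col5a3, Col8a1, Col9a2, Col11a1, Col11a2 and Col14a1. Their differences ran from -0.0099 for Col5a1 to 0.07 for Col2a1, 7 above and 3 below 0, and the smallest limma adjusted p among them was 0.771. For Col5a1 the corn oil litters lay close together, from 6.88 to 6.98, while the flutamide litters ran from 6.82 to 7.07, with 4 below and 2 above the corn oil range.

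Beyond group means, the litters showed which collagen genes varied together. The 16 pairs listed for this purpose were chosen with earlier results of these data known, and the p-values do not account for that choice. Of them 12 were measured, and the group mean was removed from each gene before the correlation. Col1a1 and Col1a2, whose products assemble into 1 type I molecule, rose and fell together over the 14 litters. Pearson's r was 0.82 (permutation p = 0.00067, adjusted over 12 pairs 0.00804) and Spearman's rho 0.86 (permutation p = 0.00029, adjusted 0.00348). The correlation was 0.78 when corn oil replicate 4 and flutamide replicate 6 were left out, whose Col1a1 array values lay farthest from the median of all litters. It was 0.79 (permutation p = 0.00405, adjusted 0.038) when flutamide replicate 1 and corn oil replicate 4 were left out, whose deviations from their group mean lay farthest from the median, a check added after seeing the data. It was 0.89 within corn oil (exact permutation p = 0.00238, adjusted 0.0286) and 0.77 within flutamide litters (exact permutation p = 0.0442, adjusted 0.265), and 0.82 with the SD of each array removed. An r this high was not particular to chains of 1 molecule. With group means removed, Col27a1 with Col9a2 had 0.86 and Col9a2 with Col4a4 0.82, pairs that were not listed and not tested.

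Col3a1 and Col5a2 gave r = 0.71 (permutation p = 0.00801, adjusted 0.0481) and rho = 0.67 (permutation p = 0.0156, adjusted 0.0937), so the pair passed on Pearson's measure alone. Leaving out corn oil replicate 6 and flutamide replicate 2 gave an r of 0.72 (permutation p = 0.0101, adjusted 0.0607), and with the SD of each array removed it was 0.64 (adjusted permutation p = 0.091). Within the groups it was 0.78 for corn oil and 0.61 for flutamide litters. Col1a1 and Col3a1 gave r = 0.49 (permutation p = 0.0772, adjusted 0.251) and rho = 0.56 (permutation p = 0.0384, adjusted 0.154), and did not pass.

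**Figure D4:**
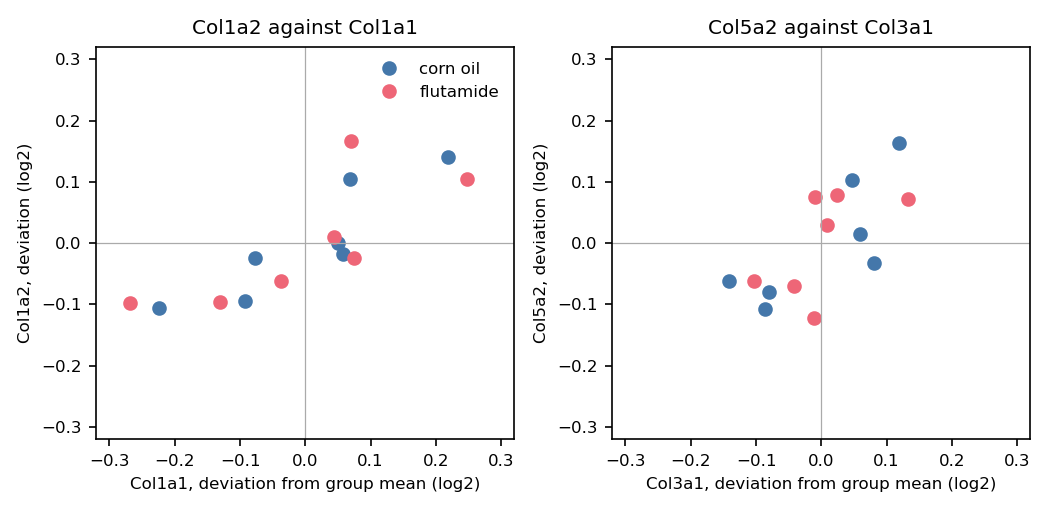
Deviation of each litter from its group mean (log2) for Col1a2 against Col1a1 on the left and Col5a2 against Col3a1 on the right, with corn oil litters in blue and flutamide litters in red. Points of both groups rise from lower left to upper right, with r = 0.82 and r = 0.71 over 14 litters.

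The promoters of Col1a2 and Col5a2 are shown because each gene belongs to a pair that passed on Pearson's r. The pair of Col5a2 passed on that measure alone. Col1a2 and Col5a2 come from different pairs. Their partners Col1a1 and Col3a1 had no promoter entry, so promoters within a pair could not be compared. Both printed sequences are stretches of 100 bases before the start annotated by RefSeq on the GRCr8 assembly, 5′ to 3′ on the gene's strand. That of Col1a2 covers bases 250 to 151 before the annotated start, at chr4:33518307-33518406 on the plus strand, and that of Col5a2 bases 100 to 1 before it, at chr9:55090152-55090251 on the minus strand. Capitals mark a CCAAT box, here read on the opposite strand as ATTGG, and a TATAAA element.
Col1a2: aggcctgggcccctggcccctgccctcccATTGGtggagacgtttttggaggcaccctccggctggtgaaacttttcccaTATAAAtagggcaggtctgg
Col5a2: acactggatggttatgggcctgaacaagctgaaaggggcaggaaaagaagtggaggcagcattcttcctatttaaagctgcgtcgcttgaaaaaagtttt
The CCAAT box was searched as CCAAT, the TATA element as TATAAA and the core of a GC box as GGGCGG, on both strands of the 250 bases before each start, and in Col1a2 the matches do not overlap. In Col1a2 the ATTGG lies 221 to 217 and the TATAAA 170 to 165 bases before the start, while these letters are not in the window of Col5a2. Of the 20 members with a promoter entry, 7 held the CCAAT box, beside 34.0% of all 33469 promoters. The TATA element was in 4 members, beside 12.9%, and the GC box core in 11, beside 30.5%. The 4 with the TATA element were Col1a2, Col10a1, Col13a1 and Col17a1. These counts describe the letters and say nothing of binding.

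The other pairs of collagen chains did not pass. Col5a1 and Col5a2 gave r = -0.04 (adjusted permutation p = 0.955) and rho = -0.20 (adjusted permutation p = 0.544), although both are chains of type V. Col2a1 and Col11a1 gave r = -0.48 (permutation p = 0.093, adjusted 0.251), and Col2a1 and Col9a1 gave r = 0.54 (permutation p = 0.104, adjusted 0.251). No pair of a collagen with a cell type marker passed, as r was 0.02 for Col17a1 with Krt14, 0.38 for Col1a1 with Pdgfra, a receptor of fibroblasts, and 0.27 for Col4a1 with Cdh5, a cadherin of endothelium, with adjusted permutation p-values of 0.955, 0.449 and 0.449. Leaving out flutamide replicate 1 and corn oil replicate 4 took Col1a1 with Pdgfra to 0.74 (adjusted permutation p = 0.038), while leaving out corn oil replicate 4 and flutamide replicate 6 took it to 0.24 (adjusted permutation p = 0.705). The fibril-associated Col12a1 and Col14a1 gave r = 0.26, and Col1a1 with Col17a1 gave -0.29 (adjusted permutation p = 0.449 for both). Col7a1 and Col17a1, both of the dermal-epidermal junction, gave r = 0.27 (adjusted permutation p = 0.449), which was -0.40 within corn oil and 0.89 within flutamide litters, and -0.18 without flutamide replicates 1 and 4. The difference between those group values was not tested.

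**Figure D5:**
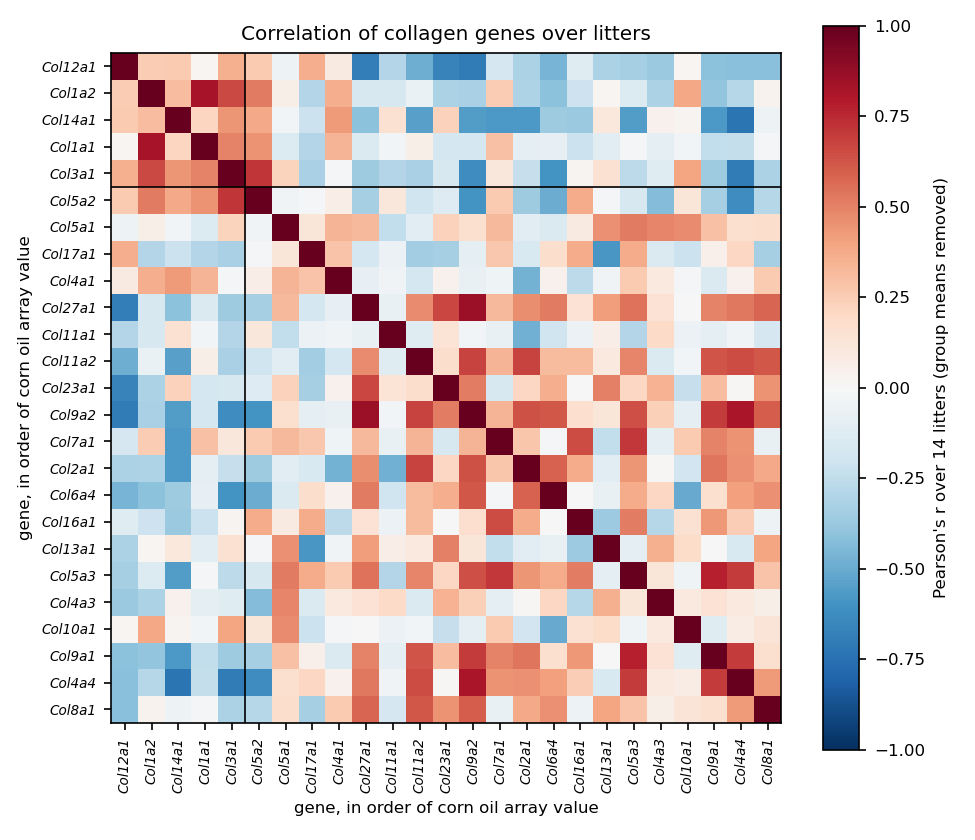
Pearson's r over 14 litters, with group means removed, for every pair of the 25 collagen genes in order of corn oil array value, red above 0 and blue below. Lines set off the 5 brightest genes, whose 10 pairs with each other are all above 0, as are 8 of the 10 once the SD of each array is removed.

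Seen over all pairs, a grouping chosen after the values were seen, the 5 brightest members correlated with each other at a median r of 0.33, with 10 of 10 pairs above 0. The other 20 members had a median of 0.13 among themselves, with 118 of 190 pairs above 0. Bright and other members had a median of -0.17, with 28 of 100 pairs above 0. The spread of each array moved with this pattern. Litters on arrays with a larger SD had lower values of Col9a2 (r = -0.82, adjusted permutation p over 25 members 0.0175), Col4a4 (r = -0.77, adjusted permutation p = 0.0244) and Col9a1 (r = -0.64, adjusted permutation p = 0.0487). Spearman's rho was -0.65, -0.60 and -0.61, with adjusted permutation p-values of 0.11, 0.164 and 0.11. With corn oil replicate 6 and flutamide replicate 7 left out, whose array SDs lay farthest from the median, the r values were -0.53, -0.57 and -0.56. With the SD of each array removed, the median r became 0.22 among the 5 brightest, 0.06 among the others and -0.07 between them. Of the 10 pairs among the 5 brightest, 8 were then above 0.

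The enzymes and chaperones that modify and fold a collagen chain, and the proteins that process, break down and bind it, were followed in 4 lists. Of 18 measured genes for chain modification and folding, 0 passed, 10 had higher and 8 lower means in flutamide litters, and the median difference was 0.0039. P4ha3, a prolyl hydroxylase subunit, differed by -0.14 (SE 0.06; limma adjusted p = 0.512), while P4ha2, another subunit of that enzyme, had 0.15 (SE 0.08; limma adjusted p = 0.599). Tmem38b, an ion channel of the endoplasmic reticulum, had 0.13 (SE 0.08; limma adjusted p = 0.651). P4hb, the beta subunit shared by the prolyl hydroxylases, was the brightest of the list at 8.86 in corn oil and differed by -0.03 (SE 0.07).

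Of 11 measured genes for propeptide cleavage and cross-linking, 0 passed, with 6 above and 5 below 0. Adamts3, a protease that trims the amino-terminal propeptide, had 0.25 (SE 0.10; limma adjusted p = 0.490) and Loxl3, a lysyl oxidase relative, -0.14 (SE 0.06; limma adjusted p = 0.541). Lox, the lysyl oxidase that starts cross-linking and the brightest of the list at 8.64 in corn oil, had 0.09 (SE 0.05; limma adjusted p = 0.588).

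Of 15 genes for collagen breakdown and its inhibitors, 0 passed, with 6 above and 9 below 0. Fap, a protease of activated fibroblasts, had -0.27 (SE 0.10; limma adjusted p = 0.388). Mmp13, a collagenase, had -0.17 (SE 0.08; limma adjusted p = 0.542) at a dim 3.25 in corn oil, and Ctsk, cathepsin K, had -0.11 (SE 0.08; limma adjusted p = 0.708). Mmp14, a membrane-bound collagenase and the brightest of the list at 8.64, differed by 0.03 (SE 0.06).

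Of 9 measured collagen receptors, 0 passed, with 5 above and 4 below 0. Ddr1, a receptor tyrosine kinase of epithelium that binds collagen, had the smallest p-value of the 4 pathway lists, differing by 0.19 (SE 0.06; limma adjusted p = 0.363). Itga2 and Itga10, integrin chains for collagen, had -0.10 (SE 0.06; limma adjusted p = 0.629) and -0.08 (SE 0.07; limma adjusted p = 0.771). Itgb1, their shared beta chain and the brightest at 8.68 in corn oil, differed by -0.06 (SE 0.07). Over the 53 measured genes of the 4 lists, 6 had an unadjusted limma p under 0.05, which is 11.3% beside 9.16% of all genes.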

How the data were processed

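The authors' deposited values are log2 RMA signals of 28826 probe sets in 14 samples, as the submitters' processing notes name RMA without a version. RMA subtracts background, makes array distributions alike and combines probes. It shrinks differences of dim probe sets and removes changes that most genes share. The platform annotation gives 15209 probe sets 1 symbol, and 14471 of the resulting 14497 genes matched a RefSeq table of GRCr8, which renewed symbols through gene IDs. The brightest probe set stood for each gene. The group comparison was fitted in limma 3.58.1 (R 4.3.3) with lmFit and eBayes, two-sided, Benjamini-Hochberg over all genes. Errors are SDs over litters or limma's standard errors, and the number of arrays limits the precision. Correlations used 100000 permutations within groups, or all orders within a group of 7. On simulated data with 200 of 14497 genes changed, the flutamide comparison found 33.2% of genes changed 1.2-fold and 96.8% of those changed 1.5-fold.

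The members and the lists of pathway genes, markers and pairs were chosen with earlier results of these data known. Litter values are described for Col1a1, Col3a1 and Col17a1, the brightest member of each class with several, and the 5 members of smallest p per direction. In each pathway list the 3 genes of smallest p and the brightest are named. Alternatives covered normalisation, filters, weights, covariates and left-out litters. Replicate numbers recur in both groups, with no label that they mark a dam or day. Same-numbered samples correlated at -0.07 to 0.15, over 0.1 in 1 of 7 pairs, and were not treated as pairs.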

Additional observations from a re-analysis of the deposited data

Results flagged for a closer look

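Col4a1 in corn oil replicate 2 had a value of 6.56, while the other 6 corn oil litters lay between 6.66 and 6.74, so this litter stood apart at the low end. Without it the Col4a1 difference went from -0.05 to -0.07. Col10a1 in flutamide replicate 2 had a value of 6.27, while the other 6 flutamide litters lay between 5.75 and 5.89. Without it the Col10a1 difference went from 0.03 to -0.04. Over 50 groups of litters, 25 genes in 2 treatment groups, 2 had a litter this far apart, and chance alone flags about 1 in 20.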

How the results depend on the processing

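No collagen gene and no pathway gene passed in any of 26 alternative settings, and no collagen gene had an adjusted p below 0.404. All 25 intervals ended short of 1.25-fold in each setting, except that 19 of 19 members remained with a mean log2 value of at least 6. Leaving out 1 litter at a time put the collagen median between -0.0035 and 0.025. The sign of 13 members held in every setting and that of 12 turned in at least 1. Over all genes, 1 passed as reported. The number was 0 after centring samples on their medians, with a plain linear model, with the keratinocyte covariate, with array SD as a covariate and without the 2 arrays of extreme SD. It was 2 with a mean of at least 6 and with trend and robust moderation, and 0 to 1 with single litters left out. The last 2 settings on array SD, and its removal from correlations, were chosen after seeing the data. With the replicate number as a block, 0 genes passed and 0 collagens, so the block changed no collagen call.

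Signs turned for these differences, and the cause was not tested. The mean of probe sets gave Col6a4 0.0203. Col4a3 was -0.0038 with median centring, -0.0017 with quantile normalisation, -0.0020 with array weights, -0.020 with the keratinocyte covariate, -0.019 with array SD and -0.0021 without the 2 arrays. Quantile normalisation gave Col5a1 0.0068 and Col9a2 0.0060. The keratinocyte covariate gave Col8a1 -0.025, Col12a1 0.021 and Col4a4 -0.010. Array SD gave Col8a1 -0.00056, Col12a1 0.022 and Col4a4 -0.033. Without the 2 arrays Col8a1 was -0.034, Col11a1 0.0016, Col10a1 -0.0020, Col5a3 -0.010 and Col4a4 -0.057. With single litters left out the ranges were -0.037 to 0.084 for Col10a1, -0.025 to 0.016 for Col11a1, -0.051 to 0.0092 for Col12a1, -0.035 to 0.054 for Col14a1, -0.014 to 0.030 for Col3a1, -0.054 to 0.034 for Col4a3, -0.019 to 0.052 for Col4a4, -0.035 to 0.0082 for Col5a1, -0.0043 to 0.056 for Col5a3, -0.010 to 0.083 for Col8a1 and -0.045 to 0.026 for Col9a2.

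Of the pairs, 2 passed as reported. The number was 1 without the 2 litters farthest from the median, 1 within corn oil, 0 within flutamide litters and 1 with array SD removed. It was 3, with Col1a1 and Pdgfra added, without the 2 litters whose deviations from the group mean were farthest from the median, also chosen after seeing the data. Signs turned for Col5a1 with Col5a2 (0.051 within flutamide, 0.059 with array SD removed), Col12a1 with Col14a1 (-0.10 with array SD removed), Col17a1 with Krt14 (-0.070 without the 2 litters by either choice, -0.28 within corn oil) and Col7a1 with Col17a1 (-0.40 within corn oil, -0.18 without the 2 litters of farthest deviation). The 7 litters per group and the shrinkage of dim probe sets by RMA limit what could be detected.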
